A study of Mus musculus with 9 samples.

Results

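Transcripts of 10 genes of the actin cytoskeleton were followed across the blood lineages of mouse bone marrow (BM) and between 2 genotypes of the marrow stroma. They were listed by symbol, with earlier results of these data known, and stand for 10 of the 15265 genes listed in at least 1 of 9 count tables. The members are the cytoplasmic actins Actb and Actg1, the monomer-binding proteins Pfn1, Tmsb4x and Tmsb10, the filament regulators Cfl1 and Coro1a, and the myosin light chains Myl6, Myl12a and Myl4. In the mouse genome (GRCm38, GENCODE vM21) they lie on chromosomes 5 (Actb), 6 (Tmsb10), 7 (Coro1a), 10 (Myl6), 11 (Actg1, Pfn1, Myl4), 17 (Myl12a), 19 (Cfl1) and X (Tmsb4x), and all are annotated as protein-coding.

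Actin cycles between monomers and filaments. Thymosins hold monomers in reserve, profilin loads them for growth at filament ends, cofilin severs and takes apart older filaments, and coronin-1A, the coronin of blood cells, steers branching by the Arp2/3 complex. Non-muscle myosin II pulls on these filaments with the help of an essential light chain (Myl6) and a regulatory light chain (Myl12a), whereas Myl4 is the essential light chain best known from the atrium of the heart and from embryonic muscle. Granulocytes and monocytes rely on this machinery to crawl and to engulf particles, while maturing red cells keep short actin filaments within a spectrin skeleton under the membrane.

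The cells came from the whole marrow of C57BL/6 mice, 2 to 3 weeks old, and were profiled by Drop-seq, in which each cell is captured in a droplet with a barcoded bead that primes at the 3′ end of transcripts. There were 4 libraries of NG2-cre/Pot1a fl/fl mice and 5 libraries of NG2-cre/Pot1a wt/wt mice, with 100 cell barcodes each. Cre is driven by the promoter of Cspg4 (the proteoglycan NG2) and removes Pot1a, a protein that protects telomeres, from pericytes and other mesenchymal cells, so the blood cells described here were not themselves the target of the deletion, and both groups carry the Cre transgene. The study used these libraries to ask how haematopoiesis differs in a marrow whose mesenchymal cells lack Pot1a. With 3 mice per group by the study's description, the libraries outnumber the mice and some share a mouse. Which ones do is not told by the labels, so libraries stand in for replicates in every test and SD here, the spread between them may be technical in part, and p-values over libraries are too small.

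Total counts per library ran from 119459 to 465277 in Pot1a fl/fl and from 143345 to 337900 in Pot1a wt/wt libraries, and Pot1a fl/fl 3 and Pot1a wt/wt 5 were the shallow ones. By Xist and Y-linked counts, Pot1a fl/fl 2 and Pot1a wt/wt 2 and 3 read as male and the other libraries as female. Pot1a gave 1 to 15 counts in Pot1a fl/fl and 2 to 10 counts in Pot1a wt/wt libraries, and Cspg4 0 to 5 and 0 to 1, too few to check the deletion in these cells. Barcodes were shared by 1 of 36 library pairs, namely 19 of 100 between Pot1a wt/wt 2 and 3, and these may be the same cells in both tables. Every comparison was repeated with this pair taken as 1 library: 39 of 54 lineage tests of members passed either way, 0 tests of genotype passed either way, and of the tests between stages 14 passed with the pair as 1 library and 11 with both. With both libraries, 16.9% to 56.1% of all genes tested passed per lineage comparison and 10.3% to 40.0% per stage comparison. For genotype the share was 0% to 0.0918%. Of 900 barcodes, 899 were kept and clustered without the 10 members and without 82 other actin genes, so that no member helped to define the cells it was measured in. Clusters were called "-like" from marker genes. They gave 272 granulocyte-like cells (81 promyelocyte-like, 156 myelocyte-like and 35 late neutrophil-like), 66 monocyte/macrophage-like cells, 224 B-lineage-like cells (106 pro-B-like and 118 small pre-B/immature-B-like) and 148 erythroid-like cells, all of a late, haemoglobin-rich cluster. A cluster of 110 cells led by Mt2, Fam132a and Car1 and another of 79 cells stayed unnamed and entered no lineage.

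Sequence upstream of the start site is shown for the members whose levels set lineages apart most (Tmsb4x, Tmsb10, Coro1a, Myl4), and for Actg1, whose window held a CArG box, the site of serum response factor that is classically found in actin promoters. RefSeq (GRCm38.p6) gave 13 windows of 250 bases for 9 of the 10 members, all but Actb. Each was searched on both strands for the CArG box, for GAGGAA, a core bound by PU.1 of myeloid and B cells, and for GATAA, a core bound by GATA factors of red cells. Capitals mark matches (TTATC is GATAA on the other strand), and the bases printed are those of the window outside annotated exons, 5′ to 3′ on the strand of the gene.
Tmsb4x (chrX:167209316-167209468, minus strand): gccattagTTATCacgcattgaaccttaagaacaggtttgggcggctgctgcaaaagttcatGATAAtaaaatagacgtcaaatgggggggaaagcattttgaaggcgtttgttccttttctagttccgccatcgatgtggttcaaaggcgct
Tmsb10 (chr6:72958749-72958998, minus strand): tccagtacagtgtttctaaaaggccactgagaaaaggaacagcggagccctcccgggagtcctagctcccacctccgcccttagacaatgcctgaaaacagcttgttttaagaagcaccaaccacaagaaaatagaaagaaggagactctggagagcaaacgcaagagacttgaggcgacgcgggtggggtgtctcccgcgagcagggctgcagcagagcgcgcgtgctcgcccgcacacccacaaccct
Coro1a (chr7:126704817-126705066, minus strand): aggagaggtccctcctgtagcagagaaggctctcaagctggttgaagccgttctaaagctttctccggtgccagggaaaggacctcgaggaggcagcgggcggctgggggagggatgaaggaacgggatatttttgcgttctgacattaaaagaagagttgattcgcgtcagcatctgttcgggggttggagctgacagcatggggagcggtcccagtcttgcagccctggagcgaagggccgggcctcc
Myl4 (chr11:104550621-104550662, plus strand): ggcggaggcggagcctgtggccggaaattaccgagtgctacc
Actg1 (chr11:120348543-120348677, minus strand): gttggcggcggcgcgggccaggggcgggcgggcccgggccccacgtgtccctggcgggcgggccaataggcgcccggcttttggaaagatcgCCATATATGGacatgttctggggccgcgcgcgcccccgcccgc
A CArG box stood in 2 of the 13 windows (Actg1 and the downstream window of Myl6), against 1.47% of all 32851 windows in the table. GAGGAA stood in 2 of 13 (Myl6 and Myl12a), against 23.3% of all windows, and GATAA in 3 of 13 (Tmsb4x, Cfl1 and Myl6), against 22.6%. The downstream window of Myl6, which held its CArG box and its GATAA, lay wholly within annotated exons. No annotated coding transcript started within 50 bases of its start site. Several windows belong to the same gene, and a match is a description of the letters, not of a bound site.

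Levels in CPM, the counts of a gene scaled to the same total of counts for every sum of cells, were computed for each lineage in each library with at least 5 of its cells, which left out the 4 monocyte/macrophage-like cells of Pot1a wt/wt 1. Lineages were then compared within libraries on the summed counts by edgeR's quasi-likelihood test, with Benjamini-Hochberg adjustment over all 1343 genes tested and a threshold of 0.05. A level is given in CPM and a difference as log2 fold ± SE, positive where the lineage named first was higher. Since the counts come from 3′ tags, levels are compared between cells and not between genes.

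Most members were low in erythroid-like cells. Against these cells, 8 of the 9 members tested were higher in granulocyte-like cells and none was lower, where 56.1% of all genes tested passed in 1 direction or the other. The same 8 were higher in monocyte/macrophage-like cells (49.1% of all genes passed), and 7 of 9 were higher in B-lineage-like cells (47.7% of all genes passed). The median log2 fold of the members was 1.57, 1.54 and 0.68 in the 3 comparisons, against 0.02, -0.06 and 0.04 over all genes. Actg1 was too low to be tested.

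Actb, the main cytoplasmic actin of blood cells, was lowest in erythroid-like cells. Over the libraries its lowest, median and highest level was 3893, 5529 and 7117 CPM in granulocyte-like cells, 5603, 6942 and 9638 CPM in monocyte/macrophage-like cells, 2800, 3313 and 4436 CPM in B-lineage-like cells, and 1432, 2020 and 2988 CPM in erythroid-like cells. The granulocyte-like and monocyte/macrophage-like ranges lay wholly above the erythroid-like range, and the B-lineage-like range overlapped it. Actb was higher than in erythroid-like cells by 1.80 ± 0.15 in granulocyte-like cells (adjusted p = 1.34e-15), by 1.70 ± 0.16 in monocyte/macrophage-like cells (adjusted p = 1.64e-13) and by 0.51 ± 0.15 in B-lineage-like cells (adjusted p = 0.00449). It was also higher in granulocyte-like than in B-lineage-like cells (1.29 ± 0.15, adjusted p = 2.93e-11). Between monocyte/macrophage-like and granulocyte-like cells the fold was -0.10 ± 0.15 (adjusted p = 0.741) with TMM scaling and 0.40, past the threshold, on total counts.

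Actg1, the other cytoplasmic actin, was nearly absent from the tables. It had 3 counts in all, 1 each in Pot1a wt/wt 1, 2 and 5 (3.97, 3.26 and 6.98 CPM), and 0 counts in each of the 4 Pot1a fl/fl libraries, where 3 counts per library, the limit that 0 allows, come to 6.45 to 25.1 CPM. Both actins have near-identical protein sequences and many processed pseudogenes, and how reads that match several places were counted is not given in the sources used here, so the level of Actg1 is uncertain. No comparison was made for it.

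Tmsb4x, thymosin β4, the main store of actin monomers in blood cells, set myeloid cells apart. Its lowest, median and highest level was 7376, 8314 and 12346 CPM in granulocyte-like cells, 7828, 12712 and 16215 CPM in monocyte/macrophage-like cells, 1677, 2507 and 3850 CPM in B-lineage-like cells, and 160.0, 438.0 and 2499 CPM in erythroid-like cells. Every granulocyte-like and monocyte/macrophage-like value lay above every B-lineage-like value, and 1 erythroid-like value reached into the B-lineage-like range. Tmsb4x was higher than in erythroid-like cells by 4.41 ± 0.26 in granulocyte-like cells (adjusted p = 2.19e-22), by 4.25 ± 0.26 in monocyte/macrophage-like cells (adjusted p = 1.02e-20) and by 1.91 ± 0.25 in B-lineage-like cells (adjusted p = 2.69e-09). Granulocyte-like cells also exceeded B-lineage-like cells (2.50 ± 0.22, adjusted p = 3.14e-15), and the fold of monocyte/macrophage-like over granulocyte-like cells was -0.16 ± 0.22 (adjusted p = 0.707) with TMM scaling and 0.33, not past the threshold, on total counts, where the CPM medians also run higher in monocyte/macrophage-like cells.

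The erythroid-like level of Tmsb4x moved with granulocyte transcripts. Pooled over libraries it was 5.82% of the granulocyte-like level, and the 39 measured granulocyte markers, 36 of them detected, were at 3.02% of theirs in the same cells, from 640.2 CPM in Pot1a wt/wt 2 to 11134 CPM in Pot1a wt/wt 5. Pot1a wt/wt 5 also held the highest erythroid-like Tmsb4x, 2499 CPM from 79 counts in 18 cells, and Pot1a wt/wt 2 the lowest, 160.0 CPM from 8 counts in 19 cells. The part of free RNA or mixed droplets in these levels was not tested. Erythroid markers in turn were at 4.32% of their own level in granulocyte-like, 4.84% in monocyte/macrophage-like and 4.41% in B-lineage-like cells.

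Tmsb10, thymosin β10, which binds monomers as thymosin β4 does, followed another pattern. Its lowest, median and highest level was 145.1, 192.9 and 416.7 CPM in granulocyte-like cells, 2063, 3505 and 7370 CPM in monocyte/macrophage-like cells, 1566, 1839 and 3257 CPM in B-lineage-like cells, and 0, 20.0 and 126.5 CPM in erythroid-like cells. The 4 lineages followed the order monocyte/macrophage-like, B-lineage-like, granulocyte-like and erythroid-like, with overlap between the ranges of the first and second alone. All 6 differences passed: Tmsb10 was higher by 3.44 ± 0.18 in monocyte/macrophage-like than in granulocyte-like cells (adjusted p = 3.27e-23), by 0.95 ± 0.16 in monocyte/macrophage-like than in B-lineage-like cells (adjusted p = 1.11e-06) and by 6.07 ± 0.27 in monocyte/macrophage-like than in erythroid-like cells (adjusted p = 5.83e-27). Granulocyte-like cells were below B-lineage-like cells (-2.49 ± 0.17, adjusted p = 2.53e-19) and 2.63 ± 0.34 above erythroid-like cells (adjusted p = 1e-09), and B-lineage-like cells 5.11 ± 0.26 above erythroid-like cells (adjusted p = 1.84e-24). The sizes over erythroid-like cells rest on 16 counts in 148 cells, with 0 counts in 2 libraries. For granulocyte-like over erythroid-like cells the fold ran from 1.16 to 3.29 over the alternative settings. Pooled, the erythroid-like level was 2.28% of the B-lineage-like level, against 5.81% for B-lineage markers in the same cells, and their part in it was not tested. Of the 2279 counts of Tmsb10 in all cells, 8.12% came from granulocyte-like cells, which were 30.3% of the cells, whereas for Tmsb4x the share was 59.7% of 11975 counts. B-lineage markers stood in monocyte/macrophage-like cells at 20.0% of their own level, highest in Pot1a wt/wt 2 (7230 CPM). Their list includes genes of MHC class II antigen presentation, which are not confined to B cells. The part of B-cell RNA in the Tmsb10 level there was not tested. Without Pot1a wt/wt 2 the call of Tmsb10 between monocyte/macrophage-like and granulocyte-like cells held.

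Coro1a, the coronin of blood cells, was close to the detection limit in erythroid-like cells. Its lowest, median and highest level was 288.3, 355.8 and 539.6 CPM in granulocyte-like cells, 397.6, 606.9 and 1474 CPM in monocyte/macrophage-like cells and 158.6, 237.7 and 601.3 CPM in B-lineage-like cells. In erythroid-like cells it gave 8 counts in all, with 0 counts in each of the 4 Pot1a fl/fl libraries (49 cells) and 2, 0, 1, 2 and 3 counts in Pot1a wt/wt 1 to 5 (99 cells). The fitted fold over erythroid-like cells was 4.22 ± 0.35 in granulocyte-like cells (adjusted p = 3.59e-16), 4.65 ± 0.38 in monocyte/macrophage-like cells (adjusted p = 7.19e-16) and 3.05 ± 0.39 in B-lineage-like cells (adjusted p = 1.41e-09), sizes that rest on those 8 counts. Pooled, the erythroid-like level was 5.52% of the granulocyte-like level, against 3.02% for granulocyte markers in the same cells, and their part in the level was not tested. Coro1a was also higher in granulocyte-like than in B-lineage-like cells (1.17 ± 0.20, adjusted p = 1.04e-06).

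Pfn1 and Cfl1 varied less. Pfn1 (profilin-1) had a lowest, median and highest level of 694.6, 874.1 and 1708 CPM in granulocyte-like cells, 602.5, 884.2 and 1223 CPM in monocyte/macrophage-like cells, 623.3, 728.9 and 1213 CPM in B-lineage-like cells, and 191.5, 430.6 and 1957 CPM in erythroid-like cells, where the highest value came from the 5 cells of Pot1a fl/fl 2. Its ranges overlapped in all 4 lineages. Pfn1 was higher than in erythroid-like cells by 1.25 ± 0.18 in granulocyte-like cells (adjusted p = 2.78e-08), by 0.78 ± 0.22 in monocyte/macrophage-like cells (adjusted p = 0.00258) and by 0.45 ± 0.19 in B-lineage-like cells (adjusted p = 0.0396). The last of these calls was lost under 6 of 20 alternative settings.

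Cfl1 (cofilin-1) had a lowest, median and highest level of 338.6, 539.1 and 976.7 CPM in granulocyte-like cells, 229.3, 764.4 and 1247 CPM in monocyte/macrophage-like cells, 374.2, 729.5 and 1232 CPM in B-lineage-like cells, and 283.2, 360.1 and 515.1 CPM in erythroid-like cells. The erythroid-like values were the narrowest set and overlapped all others. Cfl1 was higher than in erythroid-like cells by 0.85 ± 0.17 in granulocyte-like (adjusted p = 1.43e-05), 0.70 ± 0.20 in monocyte/macrophage-like (adjusted p = 0.00361) and 0.57 ± 0.17 in B-lineage-like cells (adjusted p = 0.00352). No difference among the other 3 lineages passed for Cfl1, with folds from -0.15 to 0.28, and the sign against granulocyte-like cells turned with the scaling.

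**Figure D1:**
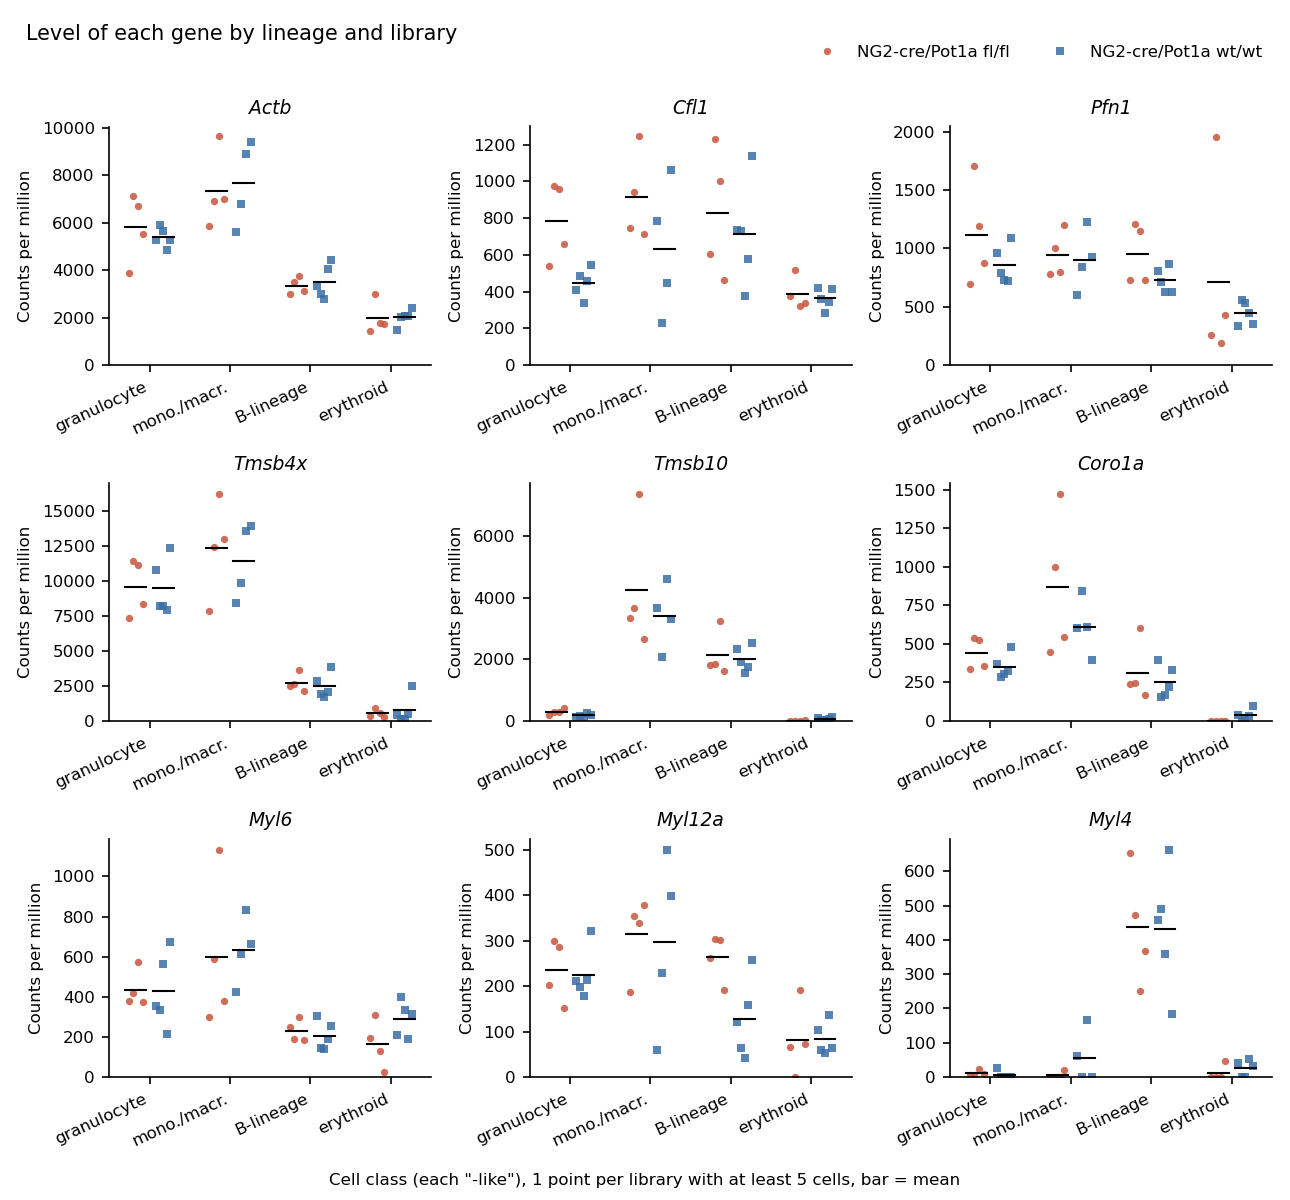
Level of the 9 members with more than 3 counts (vertical axis, CPM) in each library, by lineage, with NG2-cre/Pot1a fl/fl libraries as circles left of NG2-cre/Pot1a wt/wt libraries as squares and a bar at each mean. Tmsb4x was highest in granulocyte-like and monocyte/macrophage-like cells, Tmsb10 in monocyte/macrophage-like and B-lineage-like cells, and Myl4 reached 183.3 to 663.1 CPM in B-lineage-like cells while it stayed at 0 to 166.7 CPM elsewhere.

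The myosin light chains split in the same cells. Myl6, the essential light chain of non-muscle myosin II, had a lowest, median and highest level of 214.2, 378.4 and 675.2 CPM in granulocyte-like cells, 298.2, 600.5 and 1134 CPM in monocyte/macrophage-like cells, 138.6, 189.6 and 305.4 CPM in B-lineage-like cells, and 23.9, 208.6 and 400.1 CPM in erythroid-like cells. The B-lineage-like range lay within the erythroid-like range (fold -0.41 ± 0.26, adjusted p = 0.194). Myl6 was higher in granulocyte-like cells than in erythroid-like cells (1.10 ± 0.23, adjusted p = 4.12e-05) and than in B-lineage-like cells (1.51 ± 0.21, adjusted p = 1.38e-08), and higher in monocyte/macrophage-like than in erythroid-like cells (1.09 ± 0.28, adjusted p = 0.000995).

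Myl12a, the regulatory light chain, had a lowest, median and highest level of 152.5, 211.1 and 321.5 CPM in granulocyte-like cells, 60.2, 347.0 and 500.2 CPM in monocyte/macrophage-like cells, 41.6, 192.2 and 303.3 CPM in B-lineage-like cells, and 0, 65.1 and 191.5 CPM in erythroid-like cells. The ranges overlapped in all lineages, and the erythroid-like values rest on 31 counts. Myl12a was higher than in erythroid-like cells by 1.57 ± 0.31 in granulocyte-like (adjusted p = 1.29e-05) and 1.54 ± 0.37 in monocyte/macrophage-like cells (adjusted p = 0.000432), and the fold in B-lineage-like cells was 0.68 ± 0.33 (adjusted p = 0.0816). It has a near-identical neighbour, Myl12b, from which reads may not have been told apart.

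Myl4 was largely a B-lineage transcript in this marrow. Of its 320 counts, 89.4% came from B-lineage-like cells, which were 24.9% of the cells. In these cells it stood at 653.5, 473.9, 250.5 and 368.4 CPM in Pot1a fl/fl 1 to 4 and at 458.1, 491.6, 360.4, 663.1 and 183.3 CPM in Pot1a wt/wt 1 to 5, the 2 shallow libraries being lowest with 5 counts each. Granulocyte-like cells gave 6 counts in all, the monocyte/macrophage-like cells of 8 libraries 5, and erythroid-like cells 8, so that no library of these lineages overlapped the B-lineage-like range. Myl4 was higher by 4.04 ± 0.41 in B-lineage-like than in erythroid-like cells (adjusted p = 1.78e-12). It was lower in granulocyte-like than in B-lineage-like cells (-5.06 ± 0.41, adjusted p = 1.74e-16) and in monocyte/macrophage-like than in B-lineage-like cells (-3.62 ± 0.51, adjusted p = 2.77e-08), sizes that rest on those few counts. Pooled, its erythroid-like level was 4.53% and its granulocyte-like level 1.63% of the B-lineage-like level, and B-lineage markers stood at 5.81% and 6.40% of theirs.

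**Figure D2:**
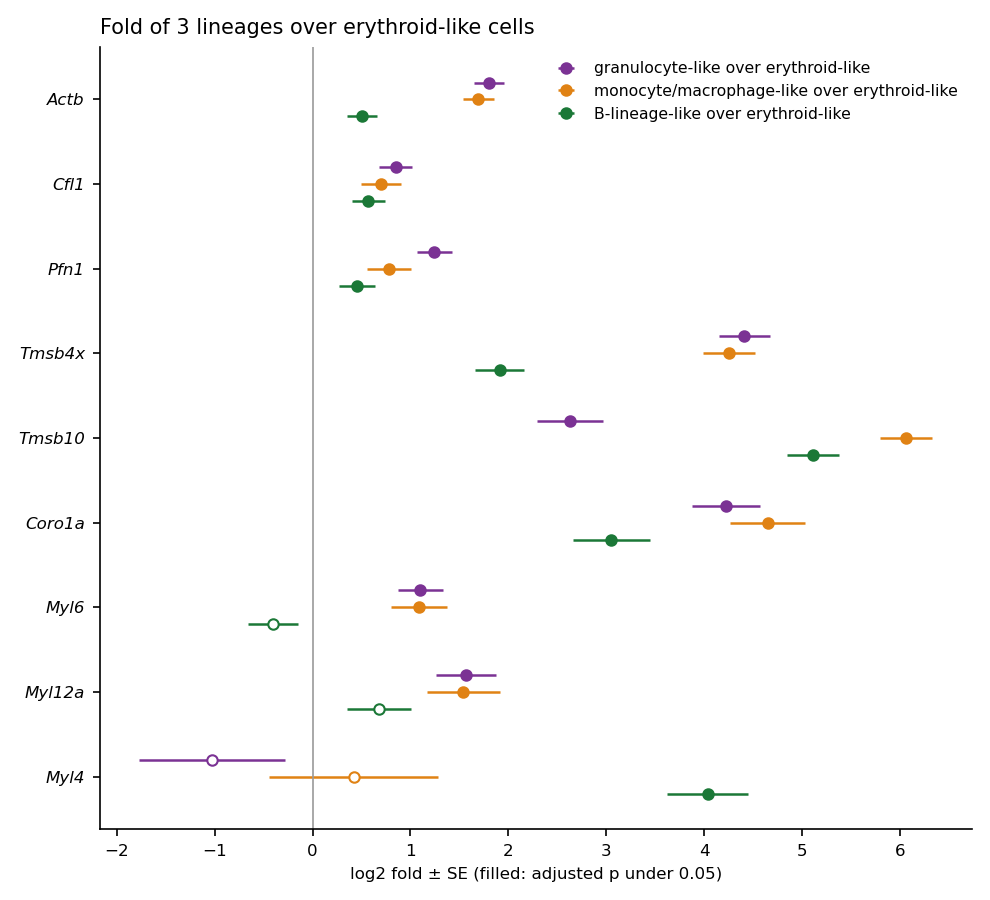
Log2 fold ± SE (horizontal axis) of each member in granulocyte-like, monocyte/macrophage-like and B-lineage-like cells over erythroid-like cells, with filled points where the adjusted p was under 0.05. Folds ran from 0.45 to 6.07 among the calls, and all calls pointed to higher levels outside the erythroid lineage.

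Between granulocyte-like and B-lineage-like cells, 8 of 9 members differed, 6 higher and 2 lower (46.2% of all genes tested passed). Between monocyte/macrophage-like and B-lineage-like cells 6 were higher and 1 was lower of 9 (39.5% of all genes passed): besides Tmsb10 and Myl4 these were Tmsb4x (2.34 ± 0.23), Coro1a (1.60 ± 0.24), Myl6 (1.49 ± 0.27), Actb (1.19 ± 0.15) and Myl12a (0.86 ± 0.31, adjusted p = 0.022). Between monocyte/macrophage-like and granulocyte-like cells Tmsb10 alone passed of 9 members (16.9% of all genes passed). The scaling bears on that comparison: on total counts the median over all genes moved from -0.10 to 0.35, the share of calls that were higher from 36.6% to 80.7%, and Actb and Coro1a passed as well (0.40 and 0.91). In the other lineage comparisons the members kept their directions under total counts except Cfl1 in granulocyte-like over B-lineage-like cells, whose fold, not past the threshold with TMM, was 0.28 with TMM and -0.30 on total counts. There the calls of Pfn1 and Myl12a were lost on total counts (0.21 and 0.33). The median over all genes of granulocyte-like over B-lineage-like cells moved from -0.03 to -0.59, with 53.5% and 23.1% of calls higher, and that of B-lineage-like over erythroid-like cells from 0.04 to 0.33, with 54.5% and 71.7% higher.

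The wider actin machinery was counted in 7 lists of 82 genes, of which 33 were tested between lineages. In granulocyte-like over erythroid-like cells 24 of 33 were higher and 1 was lower (75.8% called, against 56.1% of all genes), with a median of 1.91 against 0.02 over all genes. The largest folds were those of Arpc1b, an Arp2/3 subunit (5.60 ± 0.31, adjusted p = 2.80e-23), Dstn, the actin-severing destrin (5.11 ± 0.28, adjusted p = 1.46e-23), and Arhgdib (4.74 ± 0.23, adjusted p = 6.41e-26). Of 7 tested subunits of the Arp2/3 complex, 6 were higher and none lower. In monocyte/macrophage-like over erythroid-like cells 26 were higher and 1 was lower (81.8%, against 49.1% of all genes), led by Arpc1b, Cotl1 and Gmfg. In B-lineage-like over erythroid-like cells 20 were higher and 2 were lower (66.7%, against 47.7% of all genes). The largest folds there were those of Gmfg (3.95 ± 0.37), Arpc1b (3.55 ± 0.38) and Marcks (3.42 ± 0.45).

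Between granulocyte-like and B-lineage-like cells, 24 of 33 were higher and 2 were lower (78.8%, against 46.2% of all genes). On total counts 15 were higher and 5 were lower (60.6%, against 73.0% of all genes), with a median of 0.33 over the lists and -0.59 over all genes. With TMM Dstn (4.64 ± 0.22) and Arhgdib (2.36 ± 0.16) were higher, and Marcks, a substrate of protein kinase C that cross-links actin, was lower (-2.35 ± 0.34, adjusted p = 2.94e-08). Between monocyte/macrophage-like and granulocyte-like cells 2 of 33 were higher and 5 were lower, a share of 21.2% near the 16.9% of all genes, among them Rac2 (-1.67 ± 0.29, adjusted p = 5.35e-06). On total counts 12 were higher and 4 were lower (48.5%, against 29.3% of all genes), where 80.7% of the calls over all genes were higher.

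Within the granulocyte series, stages were compared in the same way over 1975 genes, with at least 5 cells of a stage per library. From promyelocyte-like to myelocyte-like cells 6 members were higher and 1 was lower of 9 (40.0% of all genes tested passed). Actb had a lowest, median and highest level of 4471, 7193 and 8678 CPM in myelocyte-like cells, against 2428, 3634 and 5160 CPM in promyelocyte-like cells. The ranges overlapped through Pot1a wt/wt 5, which held the lowest myelocyte-like value, and in each other library with at least 5 cells of both stages the myelocyte-like level was the higher. The fold of Actb was 1.48 ± 0.17 (adjusted p = 4.14e-12). Tmsb4x (1.25 ± 0.25, adjusted p = 1.45e-05), Coro1a (1.06 ± 0.25, adjusted p = 0.000261), Pfn1 (1.03 ± 0.18, adjusted p = 1.20e-06), Myl12a (0.85 ± 0.30, adjusted p = 0.0173) and Myl6 (0.81 ± 0.25, adjusted p = 0.00672) were higher too. On total counts 4 members passed (the calls of Coro1a, Myl6 and Myl12a were lost), and on DESeq2 size factors 8. The median over all genes was -0.09 with TMM, -0.67 on total counts and 0.22 on DESeq2 size factors, with 43.3%, 16.5% and 62.3% of calls higher.

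Tmsb10 went the other way. It stood at 124.8 ± 54.9 CPM in myelocyte-like cells (SD, n = 9) and at 369.3 ± 189 CPM in promyelocyte-like cells (SD, n = 8), with overlap in the range from 115.8 to 194.4 CPM. The fold was -1.07 ± 0.30 (adjusted p = 0.00273). Cfl1 had a fold of 0.24 ± 0.19 (adjusted p = 0.320) with TMM, -0.36 on total counts and 0.57, past the threshold, on DESeq2 size factors, and Myl4 had too few counts to read.

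Late neutrophil-like cells were few. Libraries held 2 to 7 of them, and 2 libraries, Pot1a fl/fl 1 and 4, had 5 or more. Against promyelocyte-like cells Actb alone passed of 9 members (1.21 ± 0.28, adjusted p = 0.000371, 30.6% of all genes passed), and against myelocyte-like cells none of 9 passed in edgeR's test (10.3% of all genes passed), with 1 at an unadjusted p under 0.05 (545 of all 1975 genes). DESeq2 called 7 members against promyelocyte-like and 2 against myelocyte-like cells. With the pair of libraries that share barcodes as 1 library, 3 and 1 members passed in edgeR's test. These values depend on scaling, since the median over all genes was -1.13 against myelocyte-like cells with TMM and -0.11 with DESeq2 size factors. In CPM Tmsb4x stood at 11145 and 11090 in those 2 libraries, within the range of 9600 to 12967 in myelocyte-like cells.

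**Figure D3:**
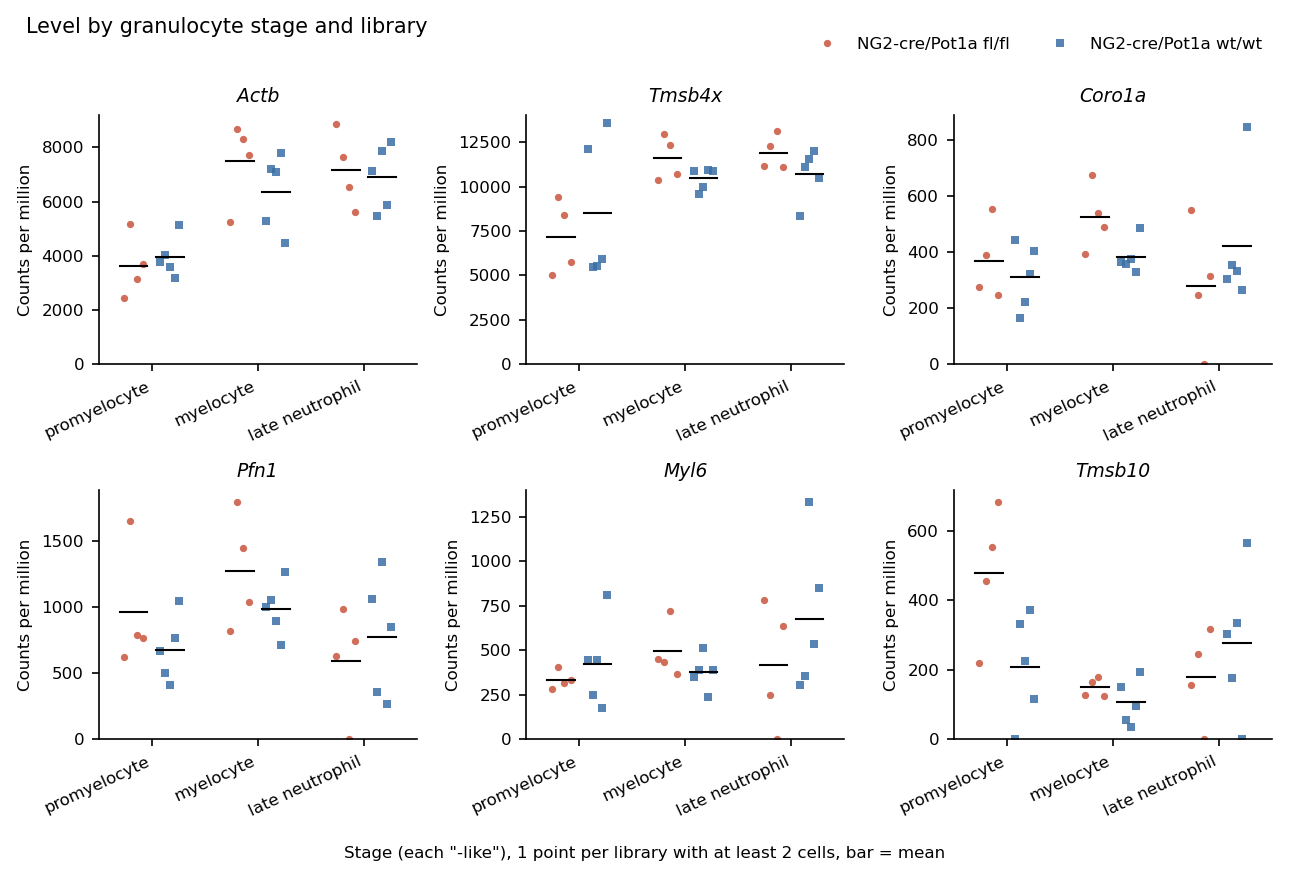
Level of 6 members (vertical axis, CPM) in promyelocyte-like, myelocyte-like and late neutrophil-like cells of each library with at least 2 such cells, NG2-cre/Pot1a fl/fl as circles left of NG2-cre/Pot1a wt/wt as squares, bar at each mean. Actb, Tmsb4x, Coro1a and Pfn1 were higher in myelocyte-like than in promyelocyte-like cells and Tmsb10 was lower, while late neutrophil-like values rest on few counts and scatter.

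The 26 actin genes of the lists that were higher in myelocyte-like than in promyelocyte-like cells, of 47 tested, were led by Fmnl1, a formin of blood cells (2.13 ± 0.59, adjusted p = 0.00221), Flna, the cross-linker filamin A (2.04 ± 0.46, adjusted p = 0.000151), and Vasp, which extends filaments at the leading edge (1.99 ± 0.38, adjusted p = 1.01e-05), and 1 was lower (57.4% called, against 40.0% of all genes). The median over the lists was 0.85 with TMM. On total counts 13 were higher and 5 were lower (38.3%, against 52.4% of all genes), with a median of 0.26 over the lists and -0.67 over all genes.

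In the B lineage 2 of 9 members were higher in small pre-B/immature-B-like than in pro-B-like cells and none was lower (20.5% of all genes passed). Myl4 stood at 1014.5, 1048.7, 550.3 and 589.7 CPM in small pre-B/immature-B-like cells of Pot1a fl/fl 1 to 4, against 269.7, 173.3, 0 and 254.7 CPM in their pro-B-like cells. In Pot1a wt/wt 1 to 5 it stood at 416.4, 844.0, 638.1, 934.9 and 304.1 CPM in small pre-B/immature-B-like cells, against 496.1, 155.0, 182.1, 450.3 and 70.8 CPM in pro-B-like cells. The later stage was higher in 8 of 9 libraries, the exception being Pot1a wt/wt 1, and the fold was 1.57 ± 0.30 (adjusted p = 2.53e-05). When each cell was assigned on its own by its markers in place of clusters, this fold was -0.16, so the Myl4 call rests on how the 2 stages were drawn. Tmsb4x, with 3329 ± 795 CPM in small pre-B/immature-B-like cells and 2052 ± 860 CPM in pro-B-like cells (SD, n = 9 each), had a fold of 0.79 ± 0.25 (adjusted p = 0.0172), lost under 4 of 20 alternatives. Of the wider lists, Cyfip2 (1.51 ± 0.37) and Rock1 (0.61 ± 0.22) were higher, of 47 tested.

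Between late erythroid-like cells and the unnamed Car1 cluster, which held 2 erythroid markers among its leading genes, too few for a name, 1 of 9 members differed (31.8% of all genes passed). Tmsb10 stood at 0, 20.0 and 126.5 CPM (lowest, median, highest) in late erythroid-like cells, against 77.0, 172.3 and 641.5 CPM in the Car1 cluster, and the fold was -1.83 ± 0.39 (adjusted p = 8.36e-05). Without integration of the libraries the clusters were drawn otherwise and the fold was 0.76. The low Coro1a of erythroid-like cells was shared by the Car1 cluster, with 11 counts in 110 cells, and so was that of Tmsb4x (716.1 ± 642 CPM in the Car1 cluster, SD, n = 9).

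Next, the genotypes were compared in whole marrow, where sums over all cells cannot tell fewer cells of a type from less RNA per cell. Of 9 members tested, 0 passed by edgeR's quasi-likelihood test and 0 by DESeq2 (0.0658% of all 4559 genes passed). Of the 9 folds 8 were positive, and 4 had an unadjusted p under 0.05 with either tool, against 365 of all 4559 genes with edgeR. The median log2 fold of the members was 0.49, against -0.0013 over all genes. Those 4 were Coro1a, Tmsb4x, Cfl1 and Pfn1.

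Coro1a stood at 249.3, 419.8, 410.2 and 223.9 CPM in Pot1a fl/fl 1 to 4, against 262.3, 153.3, 140.4, 166.4 and 258.1 CPM in Pot1a wt/wt 1 to 5 (0.79 ± 0.29, adjusted p = 0.470, edgeR). Tmsb4x stood at 4395, 8475, 6571 and 4716 CPM in Pot1a fl/fl 1 to 4, against 4896, 2968, 2548, 3360 and 5888 CPM in Pot1a wt/wt 1 to 5 (0.67 ± 0.30, adjusted p = 0.566, edgeR). Pot1a fl/fl 2 and 3 were the highest for both genes, and Pot1a fl/fl 1 and 4 lay among the Pot1a wt/wt libraries. Cfl1 stood at 522.3, 1014.0, 820.4 and 526.0 CPM in Pot1a fl/fl 1 to 4, against 580.2, 495.8, 335.7, 433.7 and 600.0 CPM in Pot1a wt/wt 1 to 5 (0.62 ± 0.27, adjusted p = 0.545, edgeR). Pfn1 stood at 610.4, 1501, 962.7 and 815.0 CPM in Pot1a fl/fl 1 to 4, against 782.9, 685.0, 616.4, 662.4 and 683.7 CPM in Pot1a wt/wt 1 to 5 (0.57 ± 0.25, adjusted p = 0.566, edgeR). The groups overlapped for all 4.

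Actb, at 3061, 6159, 4663 and 3914 CPM in Pot1a fl/fl 1 to 4, against 3438, 3513, 3271, 3683 and 4116 CPM in Pot1a wt/wt 1 to 5, had a fold of 0.37 ± 0.23 (adjusted p = 0.725, edgeR). Pot1a fl/fl 2 was again the highest and Pot1a fl/fl 1 was the lowest of all 9. The folds of Tmsb10 (0.29 ± 0.24), Myl12a (0.49 ± 0.26), Myl6 (0.22 ± 0.26) and Myl4 (-0.13 ± 0.30) were within 2 SE of 0. None of the 65 tested genes of the wider lists passed, and their median fold was 0.37.

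**Figure D4:**
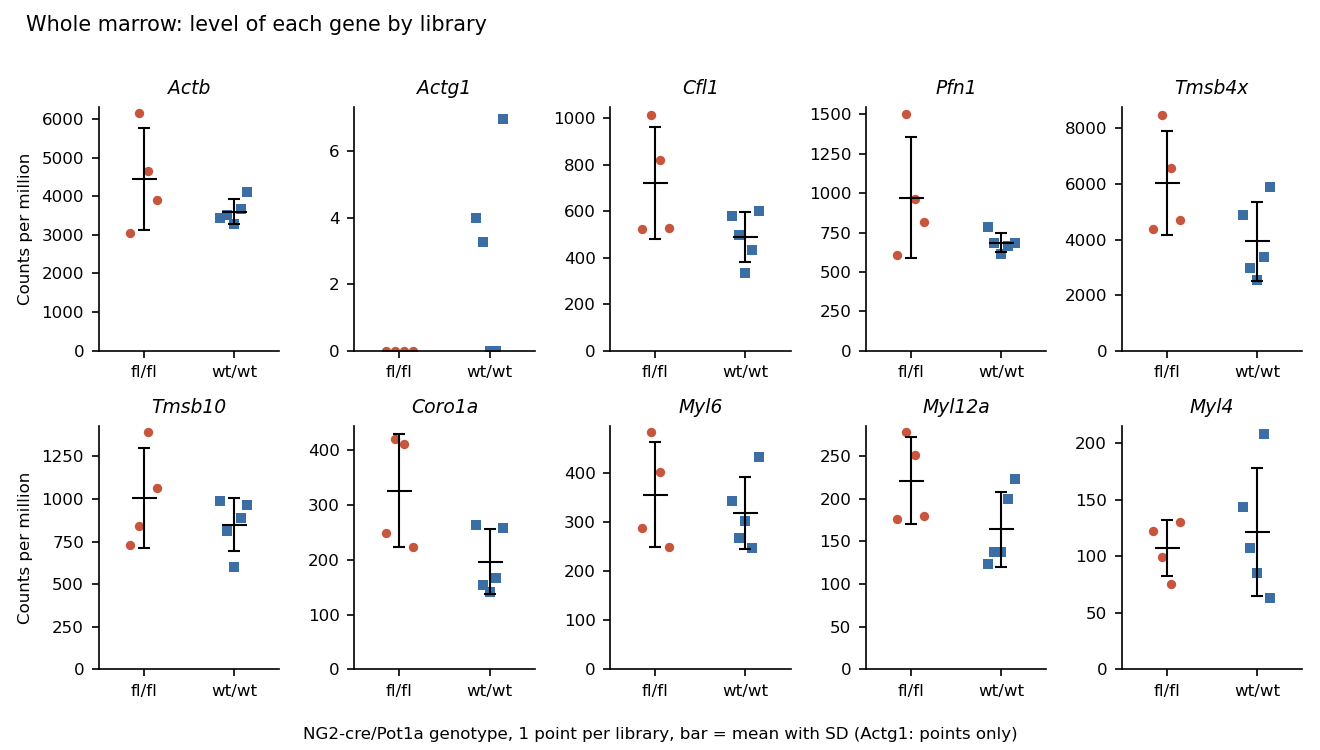
Level of each of the 10 members (vertical axis, CPM) in whole marrow, NG2-cre/Pot1a fl/fl libraries left and NG2-cre/Pot1a wt/wt libraries right, with mean and SD except for Actg1. The groups overlap for every member, for Actg1 at 0 CPM, and Pot1a fl/fl 2 holds the highest level of Actb, Cfl1, Pfn1, Tmsb4x, Coro1a, Myl6 and Myl12a.

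The share of granulocyte-like cells, in which most members are high, was 37.8 ± 11.4% in Pot1a fl/fl (28 to 54%, SD, n = 4) and 24.2 ± 4.88% in Pot1a wt/wt libraries (20.2 to 32%, SD, n = 5). By library it was 37, 54, 32 and 28% in Pot1a fl/fl 1 to 4. In Pot1a wt/wt 1 to 5 it was 32, 26, 22, 20.2 and 21%. Erythroid-like cells, in which most members are low, made up 12.3 ± 5.12% in Pot1a fl/fl and 19.8 ± 1.72% in Pot1a wt/wt libraries, and were fewest in Pot1a fl/fl 2 with 5 cells. The part of these shares in the whole-marrow values was not tested. Within granulocyte-like cells, 0 of 8 members passed by edgeR and 0 by DESeq2 (0.0918% of all genes passed), with 1 at an unadjusted p under 0.05 by either tool (42 of all 1089 genes by edgeR). There Tmsb4x stood at 7376, 11406, 11151 and 8314 CPM in Pot1a fl/fl 1 to 4, against 10805, 8225, 8222, 7911 and 12346 CPM in Pot1a wt/wt 1 to 5, a fold of -0.04 ± 0.33, and the fold of Coro1a was 0.27 ± 0.29. The member with the low p was Cfl1, at 539.1, 976.7, 957.2 and 660.7 CPM in Pot1a fl/fl 1 to 4, against 409.0, 485.6, 338.6, 459.0 and 546.6 CPM in Pot1a wt/wt 1 to 5 (0.77 ± 0.28, adjusted p = 0.963, edgeR), with overlap between Pot1a fl/fl 1 and Pot1a wt/wt 5.

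Within B-lineage-like cells 0 of 9 members passed by edgeR and 0 by DESeq2 (0% of all 1355 genes passed), with 1 at an unadjusted p under 0.05 by either tool (45 of all 1355 genes by edgeR). This was Myl12a, at 261.4, 303.3, 300.6 and 192.2 CPM in Pot1a fl/fl 1 to 4, against 122.2, 63.4, 41.6, 157.9 and 256.7 CPM in Pot1a wt/wt 1 to 5 (1.11 ± 0.42, adjusted p = 0.996, edgeR). The groups overlapped through Pot1a wt/wt 5, whose value rests on 7 counts. Actb (-0.08 ± 0.20), Tmsb10 (0.05 ± 0.25) and Myl4 (0.03 ± 0.32) had folds close to 0.

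Within erythroid-like cells 5 members could be tested, 0 passed by edgeR and 0 by DESeq2 (0% of all 978 genes passed), and Pot1a fl/fl 2 was left out for its 5 cells. All 5 folds were negative, with 1 at an unadjusted p under 0.05 by either tool (23 of all 978 genes by edgeR). This was Myl6, at 195.3, 309.1, 127.6 and 23.9 CPM in Pot1a fl/fl 1 to 4, against 208.6, 400.1, 336.3, 188.2 and 316.3 CPM in Pot1a wt/wt 1 to 5 (-1.24 ± 0.51, adjusted p = 0.9997, edgeR, without Pot1a fl/fl 2). The values rest on 1 to 20 counts per library. For Coro1a, whose 8 erythroid-like counts all came from Pot1a wt/wt libraries, 3 counts would come to 48.8 to 309.1 CPM in the Pot1a fl/fl libraries, so no difference was detectable at this depth.

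**Figure D5:**
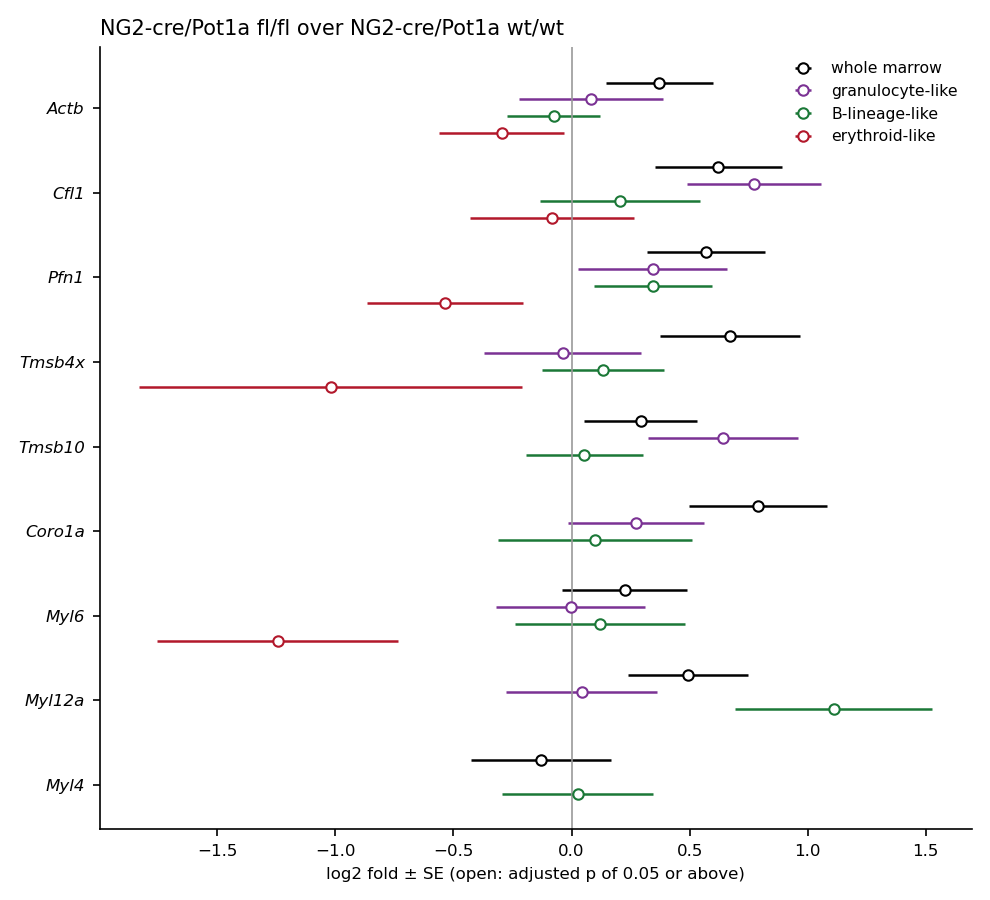
Log2 fold ± SE (horizontal axis) of NG2-cre/Pot1a fl/fl over NG2-cre/Pot1a wt/wt for each member tested, in whole marrow and within 3 lineages. All points are open, since no adjusted p was under 0.05. Folds in whole marrow and within granulocyte-like cells were 0.67 and -0.04 for Tmsb4x and 0.79 and 0.27 for Coro1a. They were 0.57 and 0.34 for Pfn1, and 0.62 and 0.77 for Cfl1.

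Taken 1 stage at a time (promyelocyte-like, myelocyte-like, pro-B-like and small pre-B/immature-B-like), 0 of 6 or 7 members passed in each by edgeR (0% of 2364 tests over all genes), with Cfl1 at an unadjusted p under 0.05 in myelocyte-like (0.84 ± 0.30) and promyelocyte-like cells (0.70 ± 0.31) and no member in the other 2. Over all genes, 23 of 440 and 26 of 594 were at such a p in myelocyte-like and promyelocyte-like cells. The difference between lineages or stages was also compared between genotypes, as an interaction. In 9 such comparisons 0 of 9 members passed in each by edgeR and 0 by DESeq2 (0.0143% of 13983 tests over all genes passed), with 0 to 2 members per comparison at an unadjusted p under 0.05 by edgeR. Over all genes, 50 to 73 of 1343 per lineage comparison and 79 to 108 of 1975 per stage comparison were at such a p. The largest interaction of a member was that of Coro1a in granulocyte-like over erythroid-like cells, 4.05 ± 1.52 (adjusted p = 0.999, edgeR), where the erythroid-like counts of Pot1a fl/fl were 0. The lowest p was that of Tmsb4x in late erythroid-like cells over the Car1 cluster, -1.67 ± 0.59 (adjusted p = 0.836, edgeR).

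Likeness across cells was described by Pearson's r between log2 CPM values (10 CPM added) over 63 sums of a stage in a library, for 3199 genes with a mean of at least 50 CPM. The sums share libraries and cell classes, so r is a description without a test. Among members, Tmsb4x was most like Actb (r = 0.87) and Coro1a (r = 0.87), and less like its paralogue Tmsb10 (r = 0.43), while Myl6 and Myl4 had r = -0.33. Over all genes, Tmsb4x was most like Cyba, a subunit of the phagocyte oxidase (0.91), Sh3bgrl3 (0.90) and Arhgdib (0.89), and Actb most like Cyba (0.84), Slfn2 (0.84) and Cd52 (0.81). Coro1a was most like Gmfg (0.88), Sh3bgrl3 (0.88) and the Arp2/3 subunit Actr3 (0.85).

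Tmsb10 was most like Lgals1, which encodes galectin-1 (r = 0.80), Ifi203 (0.79) and Mndal (0.79). Myl4 was most like the B-cell genes Pou2af1, a coactivator of octamer factors (0.81), and Cd79a, a chain of the B-cell receptor (0.80), followed by Sdc4 (0.79). The remaining members had no gene with r above 0.66: their best were Cmtm7 for Cfl1 (0.61), Arhgdib for Pfn1 (0.62), Ltb4r1 for Myl6 (0.65) and Eno1 for Myl12a (0.65).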

How the data were processed

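Single-cell libraries of whole mouse marrow had been prepared by Drop-seq. Per the labels, the authors aligned reads with STAR to mm10 (versions not given in the sources used here) and deposited for each library 1 table of raw counts, with genes in rows and 100 barcodes in columns. The study's methods call them read counts made with the Drop-seq software, and no source used here says whether molecular identifiers were collapsed, how the barcodes were chosen or how reads matching several places were handled.

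A symbol absent from a table was taken as 0 counts. Barcodes needed 200 counts and at most 25% mitochondrial counts (1 removed), and 17 called doublets (scanpy 1.11.5) were kept. Cells were integrated across libraries and clustered in Seurat 5.3.0 (2000 variable genes, 20 components, resolution 1) without the members and the 82 listed actin genes. A cluster was named from at least 3 markers among its top 50 genes. Its stage was the one with most markers among its top 10 genes, a rule set after the clusters had been seen. In the small pre-B/immature-B-like cluster these were Fcrla, Cd72 and Igkc, beside Il7r of the pro-B list. Most B-lineage markers among its top 50 genes were of the pro-B list. Counts were summed per library and class and tested with edgeR 4.0.16 (TMM, quasi-likelihood) in R 4.3.3, with the library as a block between classes, and adjusted by Benjamini-Hochberg over all genes tested. Sums needed 5 cells between classes and 10 within a class between genotypes (5 for single stages). DESeq2 1.42.0 was an alternative, as were other scalings, filters, clusterings and leaving out each library. The fits were tested on simulated counts with known changes in 200 genes, each with at least 200 counts. All sums were drawn from 1 mean profile, with 1 fixed spread for every gene and no differences in cell shares. For genotype in whole marrow they recovered 34% and 32% of genes changed by a log2 fold of -1 and 1. At -2 and 2 they recovered 98% and 100%. Genotype differences of a log2 fold near 1 or less could thus often be missed. The real libraries differ in cell shares and gave few calls between genotypes, so the shares recovered there may be lower, also for larger folds. For granulocyte-like over erythroid-like cells the shares were 69.0% and 67.4% at -1 and 1. All 10 members are named, and from the lists up to 3 genes per comparison with the largest folds past the threshold. Members, lists and tests were chosen with earlier results of these data known.

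Total counts per library set the precision, and intervals are those of the fits.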

Additional observations from a re-analysis of the deposited data

Results flagged for a closer look

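In 4 of 81 groups of 4 or 5 libraries, 1 library stood apart from the others of its genotype and lineage by Dixon's criterion, which chance meets in about 1 of 20 groups. Myl12a in granulocyte-like cells was 321.5 CPM in Pot1a wt/wt 5 (10 counts), against 177.3 to 214.2 CPM in the other Pot1a wt/wt libraries. Tmsb10 in B-lineage-like cells was 3257 CPM in Pot1a fl/fl 3 (65 counts), against 1610 to 1839 CPM in the other Pot1a fl/fl libraries. Pfn1 in erythroid-like cells was 1957 CPM in Pot1a fl/fl 2 (19 counts in 5 cells), against 191.5 to 430.6 CPM in the others. Tmsb4x in erythroid-like cells was 2499 CPM in Pot1a wt/wt 5 (79 counts in 18 cells), against 160.0 to 496.1 CPM in the others, and granulocyte markers were also highest there, at 11134 CPM. Pot1a fl/fl 3 and Pot1a wt/wt 5 are the 2 shallow libraries. The causes were not tested.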

How the results depend on the processing

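Genotype gave 0 members past the threshold in whole marrow and within lineages under every alternative that could be fitted, including sex as a covariate and the replicate block (0 members in whole marrow), although same-numbered libraries share only a number (correlation of deviations -0.010, -0.029, -0.191 and -0.043 over 3952 genes). The interaction gave 1 with no filter on low counts (0 as reported), and interactions of late neutrophil-like cells could not be fitted. For monocyte/macrophage-like over erythroid-like cells 5 members passed with no filter (8 as reported). For monocyte/macrophage-like over granulocyte-like cells 3 passed on total counts, 4 with no filter and 1 to 2 when leaving out each library (1 as reported, and 2 without Pot1a fl/fl 4 or Pot1a wt/wt 4), and Actb reversed to 0.40 on total counts. All stage comparisons together gave 18 with DESeq2 size factors, 19 with the DESeq2 test (11 as reported) and 14 with every barcode kept (9 as reported over the same comparisons, without a small pre-B cluster). Myelocyte-like over promyelocyte-like cells gave 4 on total counts and 4 without integration (7 as reported). Small pre-B/immature-B-like over pro-B-like cells gave 0 with each cell assigned on its own, where Myl4 was -0.16, and 1 to 2 when leaving out libraries (2 as reported, and 1 without Pot1a fl/fl 4 or Pot1a wt/wt 4). Late erythroid-like cells over the Car1 cluster gave 2 on total counts, 2 with every barcode, 2 with at least 10 cells and 3 without integration, where Tmsb10 was 0.76 (1 as reported). Late neutrophil-like over myelocyte-like cells (0 as reported) gave 1 with no filter, 2 with the DESeq2 test (Actb 0.82), 1 with Pot1a wt/wt 2 and 3 as 1 library, 1 with every barcode, 2 with each cell assigned on its own, 4 with at least 2 cells, and 0 to 1 when leaving out libraries (1 without Pot1a fl/fl 2 or Pot1a wt/wt 4). Late neutrophil-like over promyelocyte-like cells (1 as reported) gave 6 with DESeq2 size factors (Cfl1 1.30, Pfn1 1.40), 7 with the DESeq2 test (Cfl1 1.31, Pfn1 1.39), 0 with no filter, 3 with Pot1a wt/wt 2 and 3 as 1 library, 4 with every barcode, 3 without doublets, 6 without integration (Pfn1 1.12), 0 with each cell assigned on its own, 3 without the shallow libraries and 1 to 3 when leaving out libraries (2 without Pot1a wt/wt 1 or 2, 3 without Pot1a wt/wt 5). The settings with at least 2 cells and without the shallow libraries were chosen after seeing the data. The causes were not tested. Depth limits Actg1, Myl4 outside B-lineage-like cells and Coro1a in erythroid-like cells, each with at most 8 counts in a lineage. It also limits Tmsb10 in erythroid-like cells, with 16 counts.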

Other observations

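The cluster of 79 cells that stayed unnamed, led by Sparc, Ctla2a and Eif4h, entered no lineage. In libraries with at least 5 of its cells (4 Pot1a fl/fl and 3 Pot1a wt/wt), Actb ran from 2097 to 10625 CPM with a median of 4902 CPM, and Tmsb4x from 3222 to 12072 CPM with a median of 6138 CPM. Pot1a fl/fl 2 held the highest value of Actb, of Tmsb4x and of Myl6 (1984 CPM, 48 counts in 8 cells), while Myl6 was 311.8 to 569.7 CPM in the other libraries with a cell of this cluster. Tmsb10 stood there at 909.5 to 2383 CPM, and Myl4 gave 4 counts. No comparison was made for these cells.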
